A study of Mus musculus with 2 samples.

Results

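The replication-dependent histone genes encode the linker histone H1 and the core histones H2A, H2B, H3 and H4 that package new DNA during S phase. All protein-coding rows of the deposited expression table with a symbol starting Hist1h, Hist2h, Hist3h or Hist4h were taken, which gave 67 genes of the 54680 rows in the table, of which 22046 are protein-coding. By class, 6 of these genes encode H1, 18 H2A, 18 H2B, 12 H3 and 13 H4. They were compared between 2 cultures of CT26, a mouse colon cancer cell line. In the group CT26shSetdb1, a short hairpin RNA delivered by lentivirus targeted Setdb1, the gene of an enzyme that methylates histone H3 on lysine 9. The group CT26shCtrl was infected with a virus carrying the empty knockdown vector. Both were grown in RPMI 1640 with 10% serum for 6 days. By then the knockdown cells were differentiated, according to the labels. The labels name 1 hairpin target and do not say how many hairpins were used or whether the cells were a clone. With 1 library per group, no difference below has a replicate check, and no p-value was computed. They describe these libraries, not the conditions, and a share of cells in S phase cannot be told apart from the amount of histone RNA per cell in such bulk samples.

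Histone genes of this kind are transcribed as cells enter S phase, under the coactivator NPAT, which is activated by cyclin E and CDK2. Their mRNAs usually carry no poly(A) tail. They end just after a conserved stem-loop, which is bound by the stem-loop binding protein SLBP, directs the cleavage of the 3′ end and lets the mRNA be degraded when DNA synthesis stops. Some of these genes can also give longer, polyadenylated transcripts. The deposited labels name total RNA and the library kit, and do not say whether polyadenylated RNA was selected.

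The stem-loop was looked for in the GENCODE M21 transcripts of each gene, on the transcript strand, as GG, any pair of bases, CTTTT, any base, AG, any pair of bases and CC. It was found in 44 of the 67 genes (65.7%) and in 0.355% of the 21951 protein-coding genes of the table that have transcripts in that annotation, whatever their length. The latter include the histone genes themselves, and without them the share was 0.155%. The elements below are shown because the stem-loop divides the gene models into those that stop at it and those that run past it, and because its stem differs between H4 and the other classes. Capitals mark the 16 bases of the match and lower case the 5 bases on either side, 5′ to 3′ along the transcript, in GRCm38.

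Hist1h1c: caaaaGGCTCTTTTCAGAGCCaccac
Hist1h1e: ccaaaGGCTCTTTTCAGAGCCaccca
Hist1h2ao: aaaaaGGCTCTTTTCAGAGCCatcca
Hist2h2ac: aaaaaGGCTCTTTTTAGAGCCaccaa
Hist1h3e: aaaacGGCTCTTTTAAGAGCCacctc
Hist1h4d: ccaaaGGCCCTTTTCAGGGCCactac
Hist1h4i: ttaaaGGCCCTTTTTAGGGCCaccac
Hist2h4: ctaacGGCCCTTTTTAGGGCCaacca

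The element of Hist1h1c lies at chr13:23739507-23739532 on the plus strand, and that of Hist1h1e at chr13:23621777-23621802 on the minus strand. Those of Hist1h2ao (chr13:21810893-21810918) and Hist1h4d (chr13:23581945-23581970) are on the plus strand. Those of Hist1h3e (chr13:23561898-23561923), Hist1h4i (chr13:22040961-22040986), Hist2h2ac (chr3:96220413-96220438) and Hist2h4 (chr3:96262934-96262959) are on the minus strand. The core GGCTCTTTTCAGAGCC was shared by 26 genes of the classes H1, H2A, H2B and H3, and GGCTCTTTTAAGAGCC by 6 genes of H1, H2B and H3. Hist2h2ac alone had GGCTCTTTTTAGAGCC. The 11 H4 genes with a match had other stems. The core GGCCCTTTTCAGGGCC was found in 7 of them, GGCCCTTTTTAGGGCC in 2 and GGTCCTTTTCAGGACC in 2. The gene model of Hist1h2ao stops 31 bases after the match. That of Hist1h1c continues for 840 bases, that of Hist1h4i for 330 and that of Hist2h4 for 1257. Hist1h2bc and Hist2h2be have no match in their annotated transcripts, which says only that these letters are not in them.

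The table held FPKM values, fragments scaled by gene model length and by a depth of 18731117 reads, the same for both libraries. Whole reads were recovered from these values. FPKM, and the log2 ratios and counts of higher and lower genes drawn from it, are thus not corrected for the difference of the totals. The knockdown total was 1.03 times the control total. The control library held 18421604 reads and the knockdown library 19045830. Setdb1 had 1340 control reads (10.4 FPKM) and 317 knockdown reads (2.47 FPKM), so that 23.7% of its control level remained. Log2 ratios are those of (FPKM + 1), knockdown over control, and on this scale the differences of low genes are understated. Read ratios are relative to each library's total and are followed by their 95% exact (Clopper-Pearson) interval, which covers counting error only, since reads without molecular identifiers are not independent molecules. Of 9 colon epithelium markers, Epcam, Cdh1 and Cdx1 had no reads in either library, and the summed reads of the list were 1213 in the control and 3794 in the knockdown library, mostly from Krt18 and Krt20. Of 6 leukocyte markers, 4 had no reads, Ptprc had 4 reads in the knockdown library only and Cd68 had 245 and 2360. Of 4 endothelial markers, 3 had no reads and Tek had 1. The 6 fibroblast markers summed to 37952 and 26705 reads, mostly from Col1a2, with Thy1 at 0. Col1a2 and Col1a1 were lower in the knockdown library, while Pdgfra had 94 and 333 reads, Pdgfrb 1381 and 1493 and Dcn 23 and 33.

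Histone cluster mRNAs made up a very small part of both libraries. All 67 genes together had 3003 reads in the control library (0.0163% of its reads) and 2581 in the knockdown library (0.0136%), a ratio of 0.831 (0.788 to 0.877). This sum was carried by a few genes. Hist1h1c alone held 73.7% of these reads in control cells and 62.0% in knockdown cells. With Hist1h2bc and Hist2h2be added, the shares were 89.3% and 76.4%. These 3 genes, singled out after their values were seen, had 2681 and 1972 reads together, a ratio of 0.711 (0.671 to 0.754). The other 64 genes had 322 and 609, a ratio of 1.83 (1.60 to 2.10). The 3 genes with most reads were thus lower, and the sum of all others higher, in the knockdown library. Read counts depend on model length. Per length, Hist1h4i, with a mean of 3.30 FPKM over both libraries and a higher knockdown value, stood above Hist2h2be at 2.81 FPKM.

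**Figure D1:**
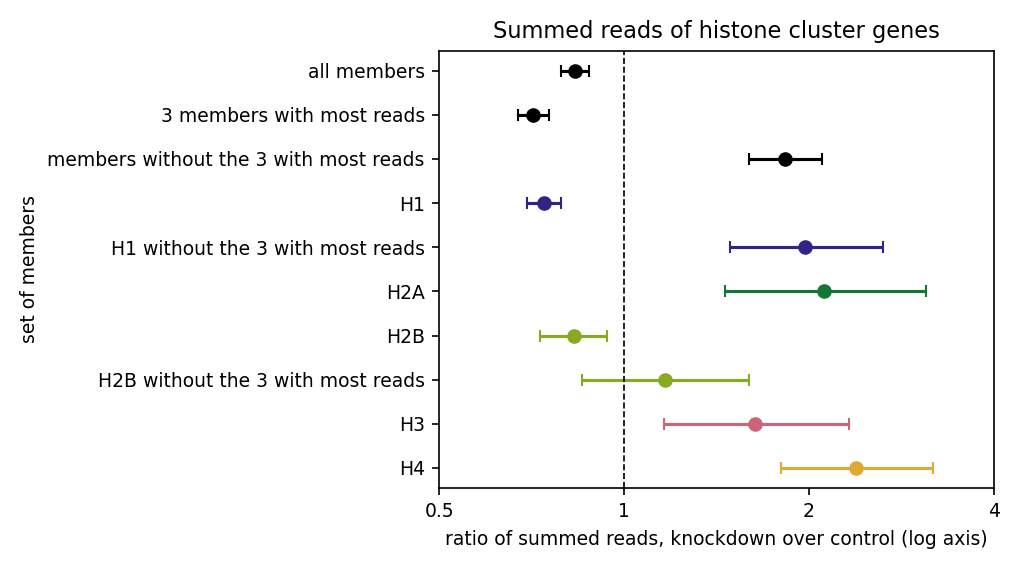
Ratio of summed reads, knockdown over control library and relative to the library totals, on a log axis, for all 67 genes, for the 3 with most reads (Hist1h1c, Hist1h2bc and Hist2h2be), for the rest and for each histone class. Bars are 95% exact intervals for counting error, and the 3 genes lie below 1 (0.711) while the other 64 lie above it (1.83).

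Of the 67 genes, 52 had a read in at least 1 library and 15 had none. Reads were more numerous in the knockdown library for 34 genes, fewer for 14 and equal for 4. Of the 13761 protein-coding genes with reads, 6765 had more, 6770 fewer and 226 equal numbers. These are counts of raw reads, not relative to the library totals. The mean FPKM of both libraries reached 1 for 13 genes. Of these 13, 8 were higher and 5 lower in knockdown cells, and their median log2 ratio was 0.55. It was -0.0013 for all 10148 genes that reached that level. For the 7414 protein-coding ones with models of 312 to 7425 bases, the full range of the histone genes, it was 0.03. This range holds most of the 9058 protein-coding genes at that level, and the median histone model had 539 bases, so lengths were not matched. Without the filter on low values the median of the 67 genes was 0.01. Of the 8 higher genes, Hist1h2ao, Hist1h3g, Hist2h2ac, Hist1h3i, Hist1h1e and Hist1h4n were under 1 FPKM in the control library. They passed the filter only through their knockdown values, whereas the 5 lower genes had 1 FPKM or more in both libraries. The median of 0.55 thus depends on the filter, and no direction of the family is read from it. At least 2-fold higher were 2 of the 13, Hist1h2ao and Hist1h3g, against 6.46% of all genes at that level and 6.18% of the protein-coding ones. None (0) was at least 2-fold lower, against 4.6% and 4.15%. With 13 genes at that level, a count of 2 is too small to be read as above those shares. The interval of the read ratio lay above 1 for 13 of the 52 genes with reads (25.0%), which is near the 23.6% of all genes with reads, and below 1 for 3 (5.77%), against 26.8%.

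Since the width of the interval depends on the number of reads, genes with 10 to 200 reads in both libraries together were also set side by side, a range chosen after the values were seen. The histone genes in this range numbered 26. The interval lay above 1 for 10 of them (38.5%), against 24.1% of 2642 protein-coding genes with as many reads. It lay below 1 for 0 of them, against 21.7%, but the upper limit of the range removes Hist1h1c, Hist1h2bc and Hist2h2be, the 3 genes with an interval below 1, so nothing is read from that 0. Without the upper limit, 29 genes had 10 or more reads, and the interval lay above 1 for 10 of them (34.5%). For all 11581 protein-coding genes with 10 or more reads, the share was 33.5%. The interval lay below 1 for 3 of the 29 (10.3%), against 38.7%. Of the 11581 genes only 2642 had 10 to 200 reads, against 26 of the 29 histone genes. Intervals narrow as reads increase, so these shares compare genes of unlike depth and nothing is read from them. Within the range of 10 to 200 reads, the read ratio was over 1 for 19 of the 26 (73.1%), against 50.2%. Their median ratio was 1.89, against 1.01 for the protein-coding genes of the range. The upper limit also raises this share and this median, since the 3 genes it removes had ratios below 1. Neither value describes the whole family. A further 23 genes had 1 to 9 reads each, with 31 reads in the control and 69 in the knockdown library in all.

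**Figure D2:**
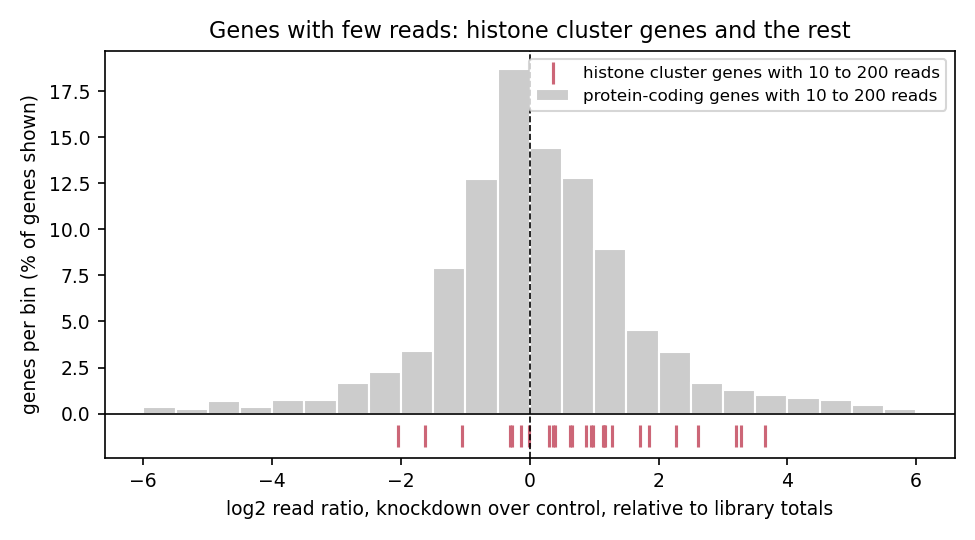
Distribution of the log2 read ratio, knockdown over control, for protein-coding genes with 10 to 200 reads in both libraries together (grey bars, in percent of the genes shown), with the 26 histone cluster genes of that range as ticks under the axis. The grey distribution is centred near 0, and 19 of the 26 ticks lie to the right of it. Hist1h1c, Hist1h2bc and Hist2h2be, all with ratios below 1, exceed the range and are not shown.

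The linker histones H1 bind the DNA between nucleosomes and help to compact chromatin. Hist1h1c (ENSMUSG00000036181, chr13:23738808-23740367), which encodes H1.2, had 2213 control and 1599 knockdown reads, or 75.7 and 54.7 FPKM. This is the highest level of the family, and the log2 ratio was -0.46 with a read ratio of 0.699 (0.655 to 0.746). The other H1 genes with reads went the other way. Hist1h1e (ENSMUSG00000051627), the gene of H1.4, had 29 reads in the control and 67 in the knockdown library, or 0.802 and 1.85 FPKM, a read ratio of 2.23 (1.43 to 3.58). Its model overlaps that of Hist1h2be, and the reads of the overlap cannot be assigned. Hist1h1d, which encodes H1.3, also had 29 control reads, and 59 knockdown reads, a ratio of 1.97 (1.24 to 3.18). For Hist1h1b, which encodes H1.5, the 17 and 27 reads gave a ratio of 1.54 whose interval spans 1 (0.807 to 3.0). These 3 genes and Hist1h1a and Hist1h1t, which had no reads, summed to 75 and 153 reads, a ratio of 1.97 (1.49 to 2.64), whereas the whole class including Hist1h1c had a ratio of 0.741 (0.696 to 0.789). Hist1h1t is known as the testis H1.

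**Figure D3:**
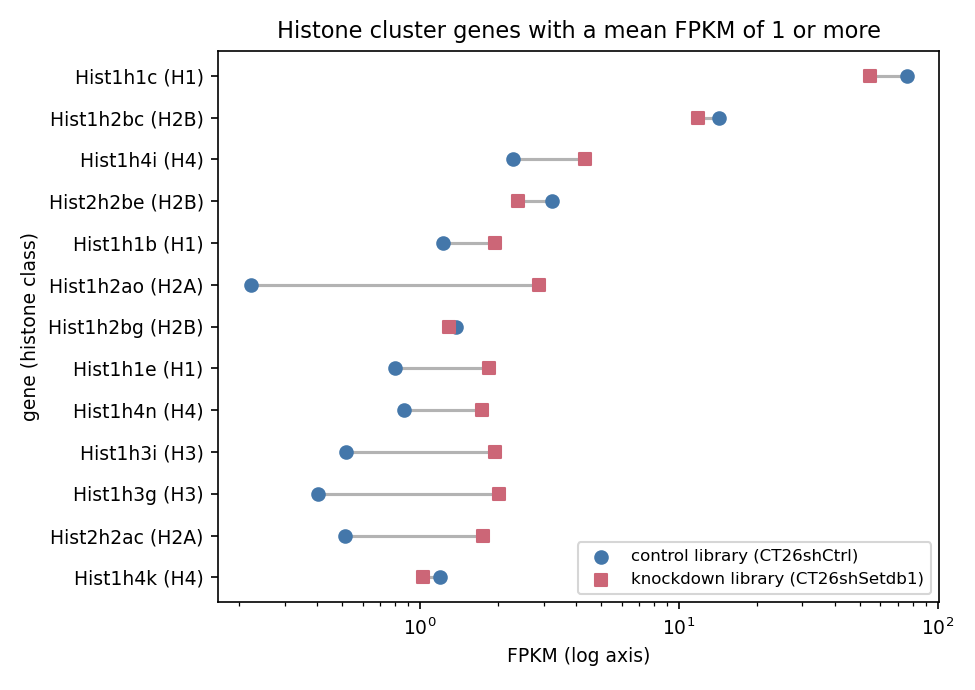
FPKM of the 13 histone cluster genes with a mean of 1 or more, on a log axis, in the control library (circles) and the knockdown library (squares), ordered by mean level. Hist1h1c (75.7 and 54.7 FPKM) and Hist1h2bc (14.3 and 11.8 FPKM) stand far above the other genes, and their squares lie to the left of their circles.

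Histone H4 pairs with H3 in the nucleosome core, and its genes encode nearly the same protein from many loci. All 13 H4 genes had reads, and their sum was 71 in the control and 175 in the knockdown library, the highest ratio of the 5 classes at 2.38 (1.80 to 3.19). The intervals of the classes H2A, H3 and H4 overlap, so no order among them can be read. Hist1h4i (ENSMUSG00000060639, chr13:22040636-22041362) was the most abundant, with 31 and 59 reads, or 2.28 and 4.33 FPKM, and a read ratio of 1.84 (1.17 to 2.94). Hist2h4 (ENSMUSG00000091405) had 6 control and 38 knockdown reads, a ratio of 6.13 (2.57 to 17.7). Hist1h4d, chosen like Hist2h4 after its values were seen, had 2 and 19 reads, a ratio of 9.19 (2.22 to 81.4). For Hist1h4c, with 1 and 10 reads, the ratio was 9.67 (1.38 to 420), and for Hist1h4j, with 1 and 8, it was 7.74 (1.04 to 343). These are few reads, and the intervals are correspondingly wide. Hist4h4, alone on chromosome 6, had 0 control and 7 knockdown reads. The exact interval of its ratio starts at 1.39. Hist1h4n, with 7 and 14 reads, and Hist1h4k, with 7 and 6, had intervals that span 1 (0.731 to 5.66 and 0.230 to 2.88). In all, the interval lay above 1 for 6 of the 13 H4 genes and below 1 for 0. Fewer reads in the knockdown library were found for 4. Of all genes with reads, 23.6% lay above 1 and 26.8% below, but these include genes with far more reads. Some H4 genes, such as Hist1h4b with 1 and 0 reads, had too few for an interval below 1. The H4 counts are therefore not read against those shares.

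Histone H3 carries the lysine 9 that the Setdb1 enzyme methylates. Its 12 cluster genes had 55 control and 93 knockdown reads in all, a ratio of 1.64 (1.16 to 2.33). Hist1h3g (ENSMUSG00000099517, chr13:23535422-23535951) had 4 and 20 reads, or 0.403 and 2.01 FPKM. Its log2 ratio was 1.10 and its read ratio 4.84 (1.62 to 19.5). Hist1h3i, with 4 and 15 reads, had a read ratio of 3.63 (1.16 to 15.0) and a log2 ratio of 0.96. Only 12.4% of the 50-base stretches of Hist1h3i occur in no other annotated transcript. Other H3 genes had fewer reads in the knockdown library. Hist1h3a had 8 and 2 reads, and Hist2h3c2 9 and 3, with intervals that span 1 (0.0250 to 1.21 and 0.0561 to 1.29). Per length, the cluster genes were a small part of the H3 mRNA measured here. Their FPKM summed to 4.14 and 8.0, against 191 and 250 for H3f3a and H3f3b, which encode the replication-independent variant H3.3 and give polyadenylated mRNAs.

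Histones H2A and H2B form the dimers at the outer faces of the nucleosome. In the H2A class, 10 of 18 genes had reads, summing to 43 and 94, a ratio of 2.11 (1.46 to 3.11). Hist1h2ao (ENSMUSG00000094248, chr13:21810465-21810944) had 2 control and 26 knockdown reads, or 0.222 and 2.89 FPKM. Its log2 ratio of 1.67 was the highest of the family, and its read ratio was 12.6 (3.15 to 109). Only 6.5% of its 50-base stretches occur in no other annotated transcript, so its reads could also come from near-identical H2A genes. Hist2h2ac, with 5 and 17 reads, had a read ratio of 3.29 (1.16 to 11.4) and a log2 ratio of 0.86. Without Hist1h2ao the class had 41 and 68 reads, a ratio of 1.60 (1.07 to 2.42).

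Alone among the 5 classes, H2B had lower knockdown values for all its genes with a mean FPKM of 1 or more. Hist1h2bc (ENSMUSG00000018102, chr13:23684199-23692908) had 309 and 256 reads, or 14.3 and 11.8 FPKM, with a read ratio of 0.801 (0.676 to 0.949) and a log2 ratio of -0.25. Hist2h2be (ENSMUSG00000068854, chr3:96221119-96223738) had 159 and 117 reads, or 3.24 and 2.38 FPKM, with a read ratio of 0.712 (0.556 to 0.909) and a log2 ratio of -0.33. Hist1h2bg had 16 and 15 reads and a log2 ratio of -0.05, with an interval that spans 1 (0.418 to 1.96). Hist1h2be, the H2B gene with most reads after Hist1h2bc and Hist2h2be, had 40 and 41. Hist1h2br had 0 control and 8 knockdown reads, and the exact interval of its ratio starts at 1.65. Without Hist1h2bc and Hist2h2be, the other 16 H2B genes had 78 and 94 reads, a ratio of 1.17 whose interval spans 1 (0.854 to 1.59). A difference of their sum was not detectable at this depth.

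By position, the genes fall into 5 groups when neighbours more than 200000 bases apart are separated. On chromosome 13, 23 genes lie at 21715763 to 22043676 and 31 at 23531050 to 23934851. On chromosome 3, 10 lie at 96219865 to 96270132, and chromosomes 11 and 6 hold 2 and 1. The first group of chromosome 13 had 92 reads in the control and 209 in the knockdown library, a ratio of 2.20 (1.71 to 2.84), with 16 genes higher and 2 lower in reads. Among all 13761 protein-coding genes with reads, 6765 were higher and 6770 lower in raw reads. The interval lay above 1 for 5 of the 21 genes of the group with reads and below 1 for 0. For all genes with reads these shares were 23.6% and 26.8%. No gene of the group had more than 59 reads in a library, and several are near-identical copies whose reads may be shared. The counts of genes in this group and the next are therefore not read against these shares, which include genes with far more reads. The first group holds none of the 3 genes with most reads. The second group had 2721 and 2175 reads, a ratio of 0.773 (0.730 to 0.818). Without Hist1h1c and Hist1h2bc its other 29 genes had 199 and 320, a ratio of 1.56 (1.30 to 1.87), with 14 higher and 8 lower. The group on chromosome 3 had 179 and 175 reads, a ratio of 0.946 (0.763 to 1.17). Without Hist2h2be these were 20 and 58, a ratio of 2.80 (1.66 to 4.92), of which Hist2h4 gave 6 and 38. On chromosome 11, Hist3h2a had 11 and 15 reads, and its model overlaps Trim17.

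Other protein-coding genes stand between the histone genes of chromosome 13. In the first group these were Prss16, Zfp184 and Pom121l2. Prss16, a thymic serine protease, had 15 and 43 reads and the highest log2 ratio of these neighbours at 0.38. Zfp184, a zinc finger gene, had 8 control and 0 knockdown reads, with an interval of the read ratio that ends at 0.567, and the lowest log2 ratio at -0.17. In the second group, Hfe had 307 and 289 reads, Slc17a3 2 and 0, and the other 4 had none.

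**Figure D4:**
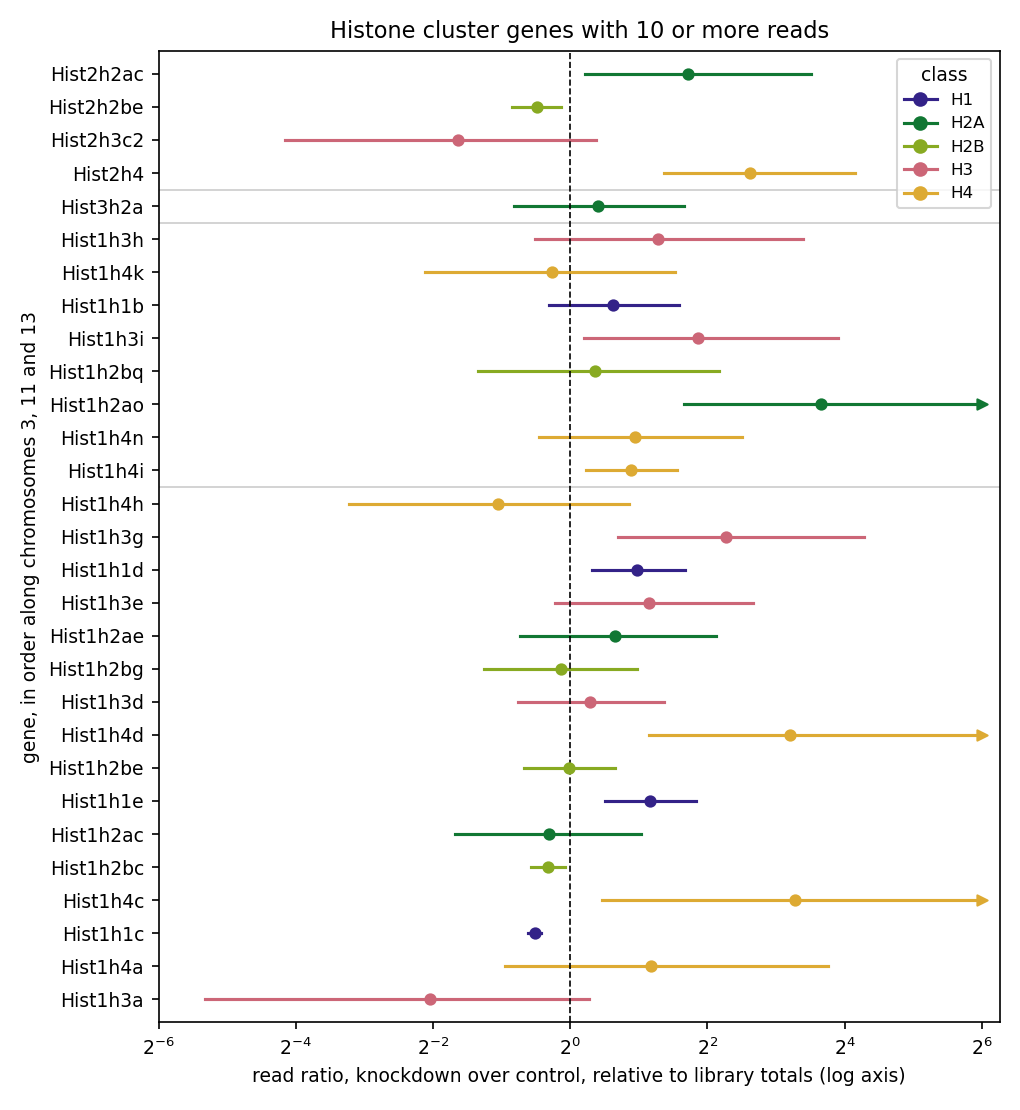
Read ratio, knockdown over control and relative to library totals, on a log axis, for the 29 histone cluster genes with 10 or more reads in both libraries together, in order along chromosomes 3, 11 and 13 (grey lines separate position groups, colours give the class). Bars are 95% exact intervals for counting error, and arrows mark bars that leave the axis. Hist1h1c, Hist1h2bc and Hist2h2be have bars wholly below 1 and 10 genes have bars wholly above it.

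The gene models were then divided by the stem-loop, a division made after the values were seen. In 22 genes the longest model continued for over 100 bases after it, and these had 2433 and 2003 reads, with a ratio of 0.796 (0.750 to 0.845). Without Hist1h1c the other 21 had 220 and 404, a ratio of 1.78 (1.5 to 2.10). In 22 genes the model ended within 100 bases, and these had 50 and 89 reads, a ratio of 1.72 (1.2 to 2.49). The 23 genes without a match had 520 and 489, or 52 and 116 without Hist1h2bc and Hist2h2be, a ratio of 2.16 (1.54 to 3.05). The ratios of the 3 kinds of model thus overlapped once the 3 genes with most reads were set apart. The models without a match had a median length of 411 bases, and a model that ends before the stem-loop cannot show it. No match thus does not mean that a gene lacks the stem-loop. Of the 67 genes, 62 had single-exon models, as is usual for these genes, while that of Hist1h2bc has 2 exons.

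Near-identical copies limit what can be counted for these genes. How reads that match several places were treated is not given in the sources used here. For each gene, the share of 50-base stretches found in no other GENCODE transcript was computed, as a description, since the read length is not given either. The median was 50.6% over the 52 genes with reads and 14.2% over the 15 without. It was 0 for Hist2h2aa1, Hist2h2aa2, Hist2h3c1, Hist2h3b and Hist2h2bb, all on chromosome 3 and all without reads. A read count of 0 is thus no measure of these genes. Hist1h1a, Hist1h1t, Hist1h2aa and Hist1h2ba, in contrast, had shares of 100%, 100%, 76.2% and 61.8%, and no reads in either library. A count of 0 allows up to 3 reads. The share was 91.5% for Hist1h1c, 69.4% for Hist1h2bc and 100% for Hist2h2be. It was only 12.4% for Hist1h3i, 11.3% for Hist1h2br and 14.4% for Hist1h4n, whose reads could also come from near-identical genes.

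Some RNAs known to lack a poly(A) tail also had few reads. Of 14 listed, 11 were in the table and 7 of these had no reads. Rn7sk, the 7SK RNA, had 16 reads in the control and 52 in the knockdown library, a ratio of 3.14 (1.77 to 5.90). Rnu12, the U12 small nuclear RNA, had 1 and 8, a ratio of 7.74 (1.04 to 343). Terc had 5 and 7, and Scarna2 had 4 and 4. Sums by row type are given next, whether or not all these RNAs lack a poly(A) tail. The mitochondrial ribosomal RNAs had 1676 and 3437 reads, a ratio of 1.98 (1.87 to 2.10). Rows typed as ribosomal RNA had 16245 and 20360 reads, a ratio of 1.21 (1.19 to 1.24), but 344 of these 354 rows had none and a single row held 20341 of the knockdown reads. Rows typed as small nucleolar RNA had 359 and 314 reads, a ratio of 0.846 (0.725 to 0.987). Of the listed RNAs, Rn7sk and Rnu12 thus had intervals above 1, as had the sum of the 64 other histone genes. The interval of the sum of all 67 histone genes lay below 1. The sums by row type went both ways. The part of any of these RNAs in the histone result was not tested.

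Genes that act on the histone genes and their mRNAs were taken from lists written for this comparison. Of 8 transcription genes, 5 reached a mean of 1 FPKM, 3 higher and 2 lower, with a median log2 ratio of 0.32. Ccne1, which encodes cyclin E1, had the highest ratio, with 15.5 FPKM in the control and 49.2 in the knockdown library (log2 ratio 1.61). Cdc25a, the phosphatase that activates CDK2, followed at 0.63. Npat, the coactivator of histone gene transcription, had 129 and 106 reads and a log2 ratio of -0.14, and Hinfp, which binds H4 promoters, was at -0.10. The intervals of both span 1 (0.609 to 1.04 and 0.760 to 1.02).

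For the 3′ end processing of histone mRNA, 17 of 19 genes reached that level, 9 higher and 8 lower, with a median of 0.01 that was -0.03 when each library was scaled by its own total. Slbp, which encodes the protein that binds the stem-loop, had the highest log2 ratio of the list at 0.71, from 5.91 to 10.3 FPKM and with a read ratio of 1.69 (1.54 to 1.86). Srrt, a partner of the cap-binding complex, followed at 0.51. Cpsf3, the endonuclease that cleaves histone pre-mRNA, had the lowest at -0.84, from 18.6 to 9.97 FPKM and with a read ratio of 0.518 (0.479 to 0.560). Lsm10, a subunit of the U7 particle that base-pairs with histone pre-mRNA, was at -0.47. Of 8 decay genes found, 6 reached the level, 5 higher and 1 lower, with a median of 0.08. Upf1, a helicase needed for histone mRNA decay, was at 0.51 and Exosc10, an exosome subunit, at 0.45. Tut7, a uridylyltransferase, was at 0.03 and Eri1, the exonuclease that trims the stem-loop, at -0.16.

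Histone chaperones had no common direction, with 9 of 17 higher, 8 lower and a median of 0.03 that was -0.01 with own totals. Chaf1a, the large subunit of the assembly factor CAF-1, was highest at 0.89, from 10.2 to 19.8 FPKM, followed by Daxx, an H3.3 chaperone, at 0.88. Nap1l1, a chaperone of H2A and H2B, and Supt16, a subunit of FACT, were lowest, both at -0.62. Among 14 genes listed as histone variants, 10 reached 1 FPKM, 7 higher and 3 lower, with a median of 0.20. The 7 include H3f3c, typed as a processed pseudogene, with 11 and 15 reads and an interval that spans 1. H1fx, a replication-independent linker histone, and Cenpa, the centromeric H3, had the highest ratios at 0.66 and 0.55, and H2afx and H3f3a the lowest at -0.37 and -0.33. The variants had 36716 and 41418 reads together, many times the reads of the cluster genes.

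Of 31 S phase genes, 24 were higher and 7 lower in knockdown cells. Their median was 0.31, and 1 gene, Gins3, was at least 2-fold higher. Gins3, a subunit of the replicative helicase, was at 2.35 and 5.72 FPKM (log2 ratio 1.01), and E2f1, which drives S phase genes, at 30.6 and 57.0 FPKM (0.88). The lowest were Pola1, a subunit of the primase-polymerase, at -0.48 and Mcm6 at -0.17. The sum of the S phase genes was higher in the knockdown library, with a read ratio of 1.14 (1.13 to 1.15). The sum of all 67 histone genes was lower, with 0.831 (0.788 to 0.877). Without the 3 genes with most reads, which were set apart after their values were seen, the histone sum was higher, with 1.83. The part of S phase in the histone values was not tested.

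**Figure D5:**
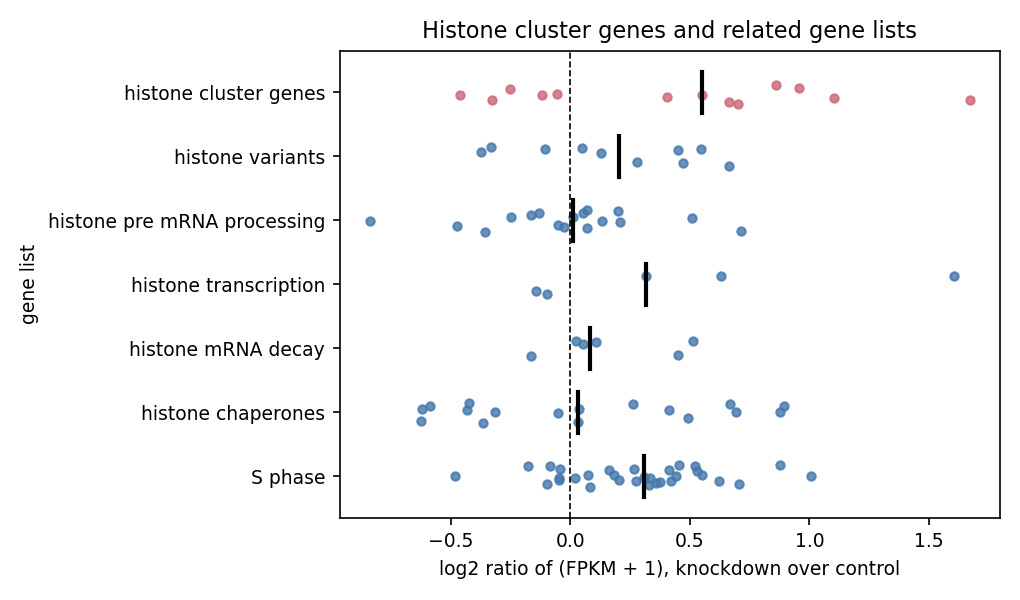
Log2 ratios of (FPKM + 1), knockdown over control, for genes with a mean FPKM of 1 or more among the histone cluster genes and 6 related lists, each point a gene and each black line a median. Points are spread vertically only to be seen. The histone cluster genes fall on both sides of 0 with a median of 0.55, which depends on the filter. The S phase genes have a median of 0.31.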

How the data were processed

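RNA sequencing was done on 1 library of CT26shSetdb1 and 1 of CT26shCtrl. Per the file headers and name, the values the authors deposited are FPKM. The submitters' processing notes name CASAVA, HISAT2, featureCounts 1.5.0-p3 and GRCm38. Strand use, multi-mapped reads and read length are not given in the sources used here. Value times model length was a whole multiple of a common step for 100% of values above 0 (tolerance 0.0001), so reads were recovered. A depth of 18731117 reads underlay the values of both libraries. The count intervals are relative to the recovered totals. All 67 histone genes had the same coordinates in GENCODE M21.

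Log2 ratios used a pseudocount of 1 FPKM. Genes with a mean FPKM of 1 or more over both libraries entered medians and 2-fold counts. Named genes were Setdb1, every histone gene at that level, the 2 highest and 2 lowest of each related list, and the highest and lowest neighbour. Others were chosen after their values were seen. The members and lists were chosen with earlier results of these data known. Intervals were run on simulated counts with only the counting error that they assume. This checks their computation and cannot show how they hold under variation between libraries. Alternatives were a pseudocount of 0.1, 3 other filters, 3 scalings, a 1.5-fold threshold and 99% intervals. Values were computed in Python 3.11.15 with scipy 1.17.1, pandas 2.3.3 and numpy 2.4.6, and drawn with matplotlib 3.10.9.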

Additional observations from a re-analysis of the deposited data

How the results depend on the processing

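No paired analysis was possible because there was a single library per group, which also leaves no library to omit. Of 142 alternative values of 28 results, 125 lay within the tolerance used, 16 moved and 1 reversed. For medians that tolerance, the median of the genes' own counting intervals, is wide, so further values are given below. For counts it is a factor of 1.5. Of 156 values of 39 single genes, 147 lay within their own counting interval. The other 9 moved, all with the pseudocount of 0.1, and none of these 9 changed sign. Within its interval, Tut7 did change sign, from 0.03 to -0.0022 with the upper quartile and -7.3e-05 with own totals.

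The number of histone genes at least 2-fold higher was 2, and it was 5 with a pseudocount of 0.1, 6 at a 1.5-fold threshold and 0 with a filter at 5 FPKM. The 13 genes with an interval above 1 became 8 with 99% intervals. With the filter at 5 FPKM, which leaves Hist1h1c and Hist1h2bc, the family median was -0.36 and that of H1 -0.46. That filter moved the medians of transcription genes to 0.96 and of decay genes to 0.45. With a pseudocount of 0.1, H2A was at 2.40 in place of 1.26, H3 at 1.90 in place of 1.03 and Setdb1 at -2.04. The medians of H2A and H3 rest on 2 genes each. All of these were under 1 FPKM in the control library and passed the filter only through their knockdown values. No direction of either class is read from these medians. Without a filter the family median was 0.01 in place of 0.55, H1 was at 0.12, the first group of chromosome 13 at 0.25, the group on chromosome 3 at 0, H2A at 0, H3 at 0.13, transcription genes at 0.11 and H2B at 0.0058, where its sign reversed; this setting adds the genes under 1 FPKM. With a filter that asks for 1 FPKM in either library, the group on chromosome 3 was at 0.86 and transcription genes at 0.47, and the second group of chromosome 13 changed sign from -0.05 to 0.21. The medians of 3′ end processing genes and chaperones, 0.01 and 0.03, fell below 0 without a filter (-0.0073 and -0.0093), with the upper quartile (-0.04 and -0.02) and with own totals (-0.03 and -0.01). Scaling by the median ratio left the knockdown values as deposited, and scaling by the upper quartile or by own totals divided them by 1.04 or 1.03. The filter at 5 FPKM left no gene of the classes H2A, H3 and H4, so these have no value there. Depth limits most of the family: 54 genes had a mean FPKM under 1, with 200 and 343 reads in all.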

Other observations

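Some related loci fell outside the choice of genes. The processed pseudogene Hist1h2al (chromosome 13, from 51202727 in GRCm38, outside both histone groups) had 49 control and 21 knockdown reads, with an interval of the read ratio of 0.236 to 0.704. Its 2-fold lower level is opposite in direction to the sum of the H2A genes it resembles by name. Within the first chromosome 13 group, a locus without a symbol next to Hist1h4m had 132 and 147 reads, an interval of 0.846 to 1.37, more than any histone gene of that group. In the chromosome 3 group, the antisense genes Gm20632 and Gm20633 overlap Hist2h2aa2 and Hist2h2aa1, which had no reads. Gm20632 had 50 and 28 reads (0.328 to 0.877), and Gm20633 had 20 and 9. Without strand, reads of these genes and of the histone genes opposite them cannot be told apart.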
